A study of Mus musculus with 9 samples.

Results

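The collagen genes of a mouse brain endothelial line, bEnd.3, were followed across 3 flow conditions. Members were all genes of the deposited table whose symbol has the form of a collagen chain name (Col, a type number, a and a chain number). This gave 44 chain genes among the 31232 genes listed, of which 11 are fibrillar chains, 6 are the Col4 chains of basement membranes and 27 belong to other collagen types. Vortex cells were exposed to vortex flow at 0.5 to 2 dyne/cm2, which the submitters chose for the enlarged, late intracranial aneurysm. HSS cells were exposed to laminar flow at 20 dyne/cm2, chosen for the early aneurysm, and PSS cells to laminar flow at 10 dyne/cm2, chosen as the normal level in brain vessels. All cells were grown on glass coverslips in medium with fetal bovine serum and antibiotics and were placed in a parallel-plate flow chamber. Each group has 3 libraries of polyadenylated RNA. The time under flow and whether the libraries of a group came from separate cultures are not given in the sources used here, so the spread between libraries, on which every p-value rests, may be technical.

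A collagen molecule is a trimer of chains that are wound into a rope-like helix after prolines and lysines have been hydroxylated in the endoplasmic reticulum. Type IV collagen forms a sheet-like network in the basement membrane under endothelial cells, mostly from the chains Col4a1 and Col4a2. Fibrillar collagens such as types I, III and V form the fibres that give the vessel wall its tensile strength and are made mainly by fibroblasts and smooth muscle cells, and the other types decorate fibrils, form beaded filaments or sit in the cell membrane.

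The Col4 genes lie in head-to-head pairs, and the windows around the starts of the pairs Col4a1 with Col4a2 and Col4a5 with Col4a6 are shown because the chains of each pair are compared below. The sequences are RefSeq promoter windows on the mouse build GRCm38.p6, with 250 bases before and 50 bases after the start of transcription, read 5′ to 3′ on the strand of the gene. Capitals mark every match to CCAAT or GGGCGG on either strand (ATTGG and CCGCCC on the other strand). Of the 44 chains, 35 had windows in this table.
Col4a1: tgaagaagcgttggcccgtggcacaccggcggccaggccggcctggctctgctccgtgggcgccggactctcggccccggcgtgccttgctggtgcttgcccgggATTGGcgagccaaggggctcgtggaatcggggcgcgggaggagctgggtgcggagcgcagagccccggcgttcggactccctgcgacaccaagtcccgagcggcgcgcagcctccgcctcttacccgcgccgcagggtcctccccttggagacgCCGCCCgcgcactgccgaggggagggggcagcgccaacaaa
Col4a2: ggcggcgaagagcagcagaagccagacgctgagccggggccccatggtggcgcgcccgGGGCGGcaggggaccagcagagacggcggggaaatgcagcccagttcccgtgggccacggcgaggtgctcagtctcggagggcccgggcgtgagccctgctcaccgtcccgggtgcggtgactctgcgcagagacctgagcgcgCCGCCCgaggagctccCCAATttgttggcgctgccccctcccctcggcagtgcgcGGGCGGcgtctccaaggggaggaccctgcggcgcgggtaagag
Col4a5: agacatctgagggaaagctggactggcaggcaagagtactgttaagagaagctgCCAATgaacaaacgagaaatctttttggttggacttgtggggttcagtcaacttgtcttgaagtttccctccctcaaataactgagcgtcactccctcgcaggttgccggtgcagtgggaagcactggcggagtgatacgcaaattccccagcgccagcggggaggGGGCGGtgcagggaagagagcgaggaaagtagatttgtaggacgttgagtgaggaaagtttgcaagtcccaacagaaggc
Col4a6: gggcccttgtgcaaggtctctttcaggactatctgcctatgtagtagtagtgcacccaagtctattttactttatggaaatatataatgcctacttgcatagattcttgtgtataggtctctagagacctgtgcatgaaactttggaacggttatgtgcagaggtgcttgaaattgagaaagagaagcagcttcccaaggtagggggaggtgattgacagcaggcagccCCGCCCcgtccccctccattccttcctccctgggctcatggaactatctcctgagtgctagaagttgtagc

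The Col4a1 window lies at chr8:11312777-11313076 on the minus strand and the Col4a2 window at chr8:11312555-11312854 on the plus strand. Their start sites are 21 bases apart, placed so that the transcripts overlap at their 5′ ends, and the windows share 78 bases. The Col4a5 window lies at chrX:141475169-141475468 on the plus strand and the Col4a6 window at chrX:141474027-141474326 on the minus strand, with start sites 1343 bases apart and no shared bases. The windows of Col4a1 and Col4a2 are 74% and 73.7% G and C, and those of Col4a5 and Col4a6 are 52.7% and 48.3%. On both strands together, the Col4a1 and Col4a5 windows each held 1 CCAAT and 1 GGGCGG, the Col4a2 window held 1 CCAAT and 3 GGGCGG, and the Col4a6 window held 1 GGGCGG and no CCAAT. The GGGCGG match of the Col4a1 window lies in the shared bases and is the same site as 1 of the 3 in the Col4a2 window. None of the 4 windows held the letters TATAAA. Over all 32851 mouse windows of this length, 37.4% held CCAAT, 35.7% held GGGCGG and 13.6% held TATAAA, so windows with such matches are common.

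Total counts were 17407217 to 22965802 per library, and 15774 genes had enough counts to be tested. The libraries of a group differed by more than sampling noise, least in HSS and most in Vortex. Vortex replicate 2 stood apart from all the other libraries, and many results are also given without it. In Vortex replicate 2, genes in the lowest eighth of GC content had a median log2 difference from PSS of -1.47 and those in the highest eighth one of 0.88. The 33 tested collagen chains had a median GC content of 56.9% against 49.8% for all tested genes. Levels in CPM are counts scaled to a common library total after each total was adjusted by a TMM factor. These factors were 0.911 to 0.968 in Vortex, 1.022 to 1.026 in HSS and 1.017 to 1.067 in PSS. The summed level of 12 endothelial markers was 759, 6757 and 1184 CPM in Vortex replicates 1, 2 and 3, 378 to 383 CPM in HSS and 2344 to 2971 CPM in PSS. Pecam1, a defining endothelial marker, had 28, 30567 and 1116 counts in Vortex libraries, 23, 28 and 32 in HSS libraries and 275, 254 and 300 in PSS libraries. Cldn5, another, had 13, 7791 and 62 counts in Vortex libraries, 2, 0 and 0 in HSS libraries and 1162, 1202 and 1110 in PSS libraries. Kdr had 1495, 15607 and 2210 counts in Vortex libraries, 138 to 151 in HSS and 8434 to 9675 in PSS. Not all of the markers were this low in HSS. Cdh5 had 5213, 27244 and 7723 counts in Vortex libraries, 2125 to 2665 in HSS and 9492 to 11861 in PSS. Tie1 had 3478, 23506 and 6079 counts in Vortex libraries, 3658 to 4288 in HSS and 6672 to 9552 in PSS. Of 8 fibroblast markers, 7 were in the table. Their sum was 747, 323 and 621 CPM in Vortex, 410 to 444 CPM in HSS and 213 to 267 CPM in PSS. The members differed in direction. Pdgfra had 7412, 450 and 6731 counts in Vortex libraries, 1213 to 1556 in HSS and 1374 to 1612 in PSS. Fbln2 had 3663 to 4999 counts in Vortex, 5801 to 7021 in HSS and 2319 to 3507 in PSS. Dcn had 648, 8 and 910 counts in Vortex libraries, 158 to 176 in HSS and 72 to 101 in PSS. Mfap5 had 111, 1323 and 65 counts in Vortex libraries, 117 to 173 in HSS and 318 to 350 in PSS. Lum, Postn and Dpt had no more than 82 counts and were highest in PSS. The sum of 9 mural markers was 160, 65.8 and 217 CPM in Vortex, 133 to 139 CPM in HSS and 89.7 to 113 CPM in PSS. Most of it came from Des, at 1211 to 3192 counts in Vortex, 1704 to 2115 in HSS and 1281 to 1941 in PSS. Pdgfrb had 96 to 956 counts in Vortex, 599 to 741 in HSS and 359 to 456 in PSS. Kcnj8 had 9 to 190 counts per library, and Acta2, Tagln, Myh11, Cnn1, Rgs5 and Cspg4 had at most 29. The sum of 6 macrophage markers was 50.9, 22.1 and 56.0 CPM in Vortex, 22.1 to 25.4 CPM in HSS and 6.82 to 7.72 CPM in PSS, with Ptprc at 0 or 1 count and Itgam at 0 to 3 counts in every library. Most of that sum came from Csf1r, at 175 to 276 counts in Vortex, 281 to 367 in HSS and 28 to 59 in PSS, and from Cd68, at 167 to 741 counts in Vortex, 100 to 121 in HSS and 78 to 102 in PSS. The part of these differences between libraries in the collagen results was not tested, and in bulk RNA fewer cells of a type and less RNA per cell cannot be told apart.

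All 44 chains had at least 1 count in some library, so none was without counts in the whole series. Of these, 33 had enough counts to be tested and 24 reached a mean of at least 1 FPKM (fragments per kilobase of transcript, scaled by library total, which is a level per length) in at least 1 group. The 11 untested chains had 0 to 9 counts in any library. They were the basement membrane chains Col4a3 and Col4a6, the fibrillar chain Col24a1, and Col6a4, Col6a5, Col6a6, Col8a2, Col9a1, Col10a1, Col19a1 and Col26a1. Summed over the 9 libraries, Col4a3 had 40 counts, Col9a1 31, Col6a5 24, Col4a6 17 and Col10a1 11, and the other 6 had 1 to 7. Col24a1 had all of its 6 counts in PSS replicate 2. Groups with no count over their 3 libraries were Vortex for Col10a1, Col19a1, Col24a1, Col26a1 and Col6a6, HSS for Col24a1, Col6a4, Col6a6 and Col8a2, and PSS for Col19a1. A count of 0 in a group allows up to 3 counts over its 3 libraries. Differences in the 11 chains were not tested in the main fit, and no limit of detection was worked out for them.

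Basement membrane chains took most of the summed collagen FPKM in every library, and the HSS libraries held the lowest basement membrane share and the highest fibrillar share. Col4 chains made up 63.2%, 80.1% and 63.2% of the summed collagen FPKM in Vortex libraries, 53.3%, 53.1% and 53.2% in HSS libraries and 61.9%, 62.1% and 60.5% in PSS libraries. Fibrillar chains made up 16.1%, 4.88% and 15.1% in Vortex libraries, 28.1%, 28.0% and 27.8% in HSS libraries and 22.2%, 22.3% and 22.8% in PSS libraries. The groups did not overlap in the fibrillar share, which was lowest in Vortex and highest in HSS. Nor did they overlap in the basement membrane share, which was highest in Vortex and lowest in HSS, with Vortex replicates 1 and 3 just above PSS. This class holds the Col4 chains only, here and in all later counts. Col18a1, also a collagen of basement membranes, is counted with the other chains. The other chains made up 20.6%, 15% and 21.7% in Vortex libraries, 18.6%, 18.8% and 18.9% in HSS libraries and 15.9%, 15.6% and 16.7% in PSS libraries. The summed level itself was 750.0, 945 and 768 FPKM in Vortex, 688, 687 and 714 FPKM in HSS and 806, 889 and 579 FPKM in PSS, and the range of PSS covered both of the other groups except Vortex replicate 2.

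**Figure D1:**
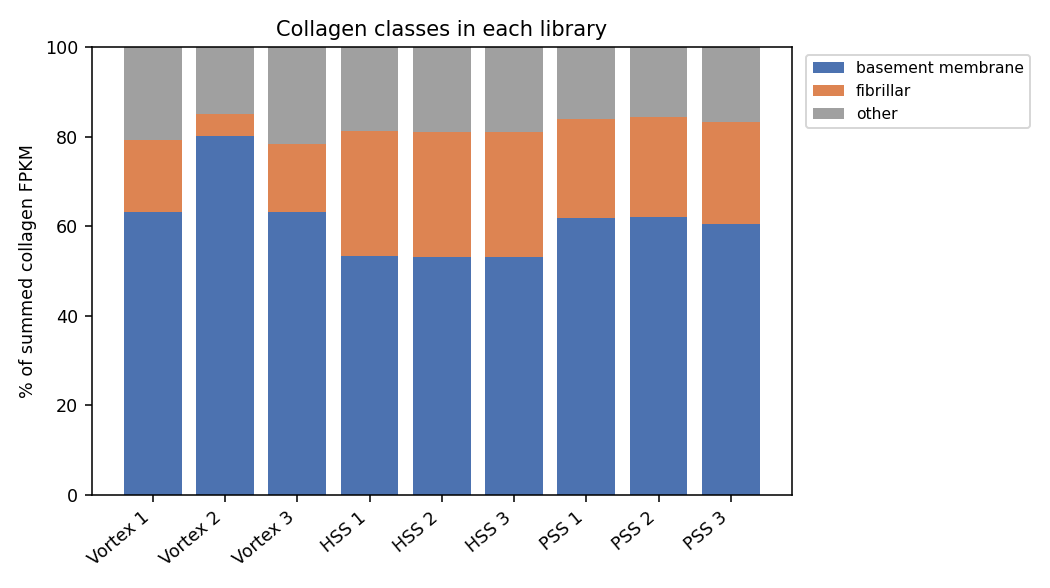
Share of the summed collagen FPKM (vertical axis, %) held by basement membrane, fibrillar and other chains in each library (horizontal axis, Vortex, HSS and PSS replicates 1 to 3). The fibrillar share is 4.88% to 16.1% in Vortex, where replicate 2 has the lowest value, 27.8% to 28.1% in HSS and 22.2% to 22.8% in PSS.

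**Figure D2:**
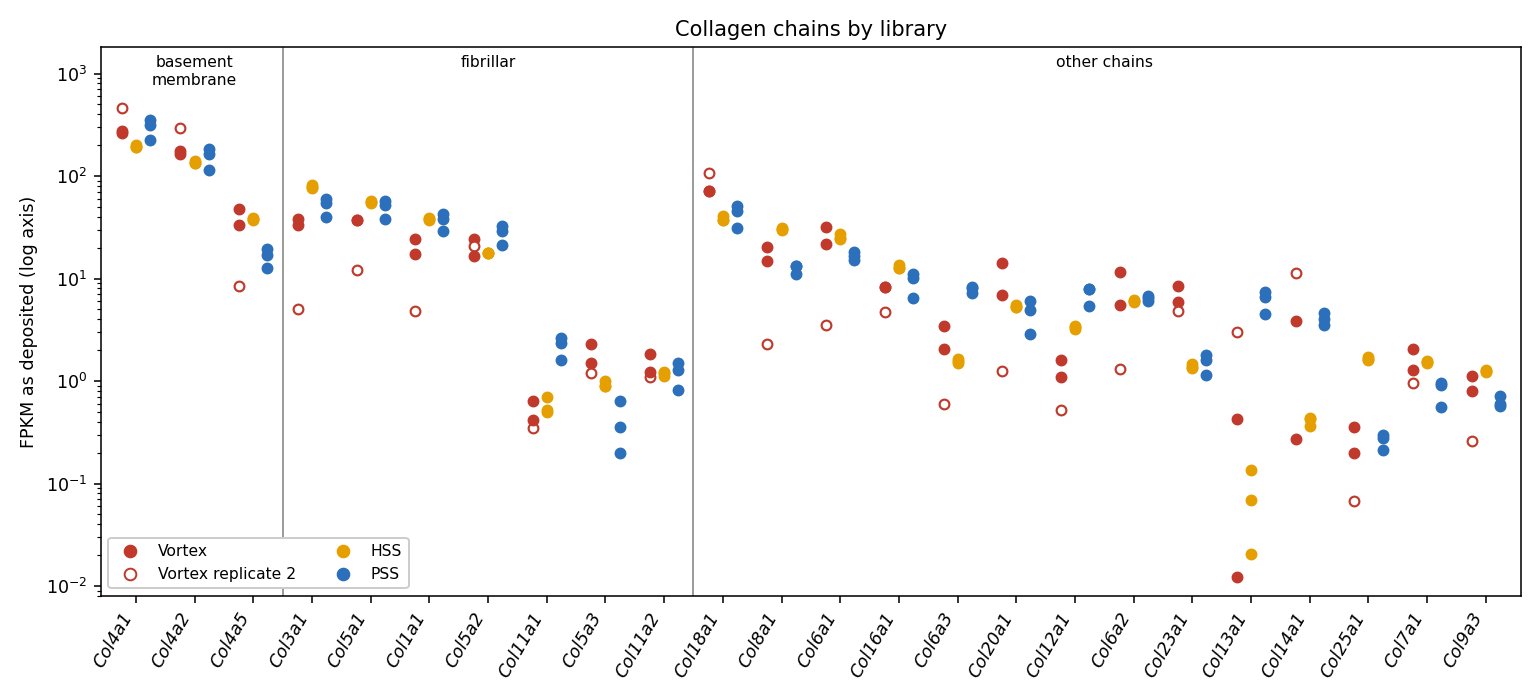
Level of the 24 chains with a mean of at least 1 FPKM in at least 1 group, as deposited FPKM on a log axis, with 1 point per library and the open circle for Vortex replicate 2. Col4a1 and Col4a2 lie highest in every library, and Vortex replicate 2 lies below the other Vortex libraries for most fibrillar chains and above them for Col4a1, Col4a2, Col18a1, Col13a1 and Col14a1.

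Of the basement membrane chains, Col4a1 and Col4a2 had the highest levels of all collagens and Col4a5 the next highest of the class. Col4a1 (ENSMUSG00000031502), which supplies most chains of the vascular type IV network, was at 263, 457 and 275 FPKM in Vortex libraries, 193, 193 and 199 in HSS libraries and 316, 349.6 and 222 in PSS libraries. Its means were 332 ± 109 FPKM in Vortex, 195 ± 3.22 in HSS and 296 ± 65.9 in PSS (SD, n = 3 each). Col4a2 (ENSMUSG00000031503), its partner chain, was at 163, 292 and 177 FPKM in Vortex libraries, 135, 134 and 141 in HSS libraries and 164, 182 and 115 in PSS libraries, with means of 210.2 ± 70.8 FPKM in Vortex, 137 ± 4.10 in HSS and 154 ± 35.0 in PSS. Both chains were highest in Vortex replicate 2 and tightly grouped in HSS, and the Vortex and PSS ranges overlapped in FPKM. In CPM, which unlike FPKM carries the TMM factors, these ranges overlapped for Col4a1, whereas for Col4a2 every Vortex library was above every PSS library. The separation of Col4a2 thus depended on the scaling. For Col4a1 the log2 fold change (± SE) was 0.35 ± 0.25 (adjusted p = 0.386) in Vortex against PSS, -0.56 ± 0.25 (adjusted p = 0.209) in HSS against PSS and 0.91 ± 0.25 (adjusted p = 0.0579) in Vortex against HSS. These and all later adjusted p-values of genes are from edgeR, adjusted by Benjamini-Hochberg over the whole table of tested genes. For Col4a2 it was 0.63 ± 0.25 (adjusted p = 0.131), -0.13 ± 0.25 (adjusted p = 0.818) and 0.76 ± 0.25 (adjusted p = 0.0973) in the same order of comparisons. Without Vortex replicate 2, Col4a1 passed as lower in HSS than in PSS, at -0.56 ± 0.15 (adjusted p = 0.0167), and as higher in Vortex than in HSS, at 0.59 ± 0.16 (adjusted p = 0.0266), while Vortex against PSS was at 0.03 ± 0.16 (adjusted p = 0.918). Col4a2 then did not pass in any comparison, at 0.30 ± 0.17 (adjusted p = 0.178) in Vortex against PSS, -0.13 ± 0.15 (adjusted p = 0.544) in HSS against PSS and 0.43 ± 0.17 (adjusted p = 0.0815) in Vortex against HSS.

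The balance of Col4a2 to Col4a1 was steadier within a group than the level of either chain. The ratio of their FPKM was 0.617, 0.638 and 0.642 in Vortex libraries, 0.699, 0.692 and 0.711 in HSS libraries and 0.520, 0.521 and 0.516 in PSS libraries. No group overlapped another, and PSS replicate 3, which had the lowest level of both chains in its group, had nearly the same ratio as the other PSS libraries. The mean ratio was 0.633 ± 0.0133 in Vortex, 0.700 ± 0.00989 in HSS and 0.519 ± 0.00291 in PSS (SD, n = 3 each). The difference in log2 ratio was 0.29 for Vortex minus PSS, 0.43 for HSS minus PSS and -0.15 for Vortex minus HSS, with p = 0.1 in each case by an exact two-sided permutation test, which is the smallest value that 3 libraries against 3 can give. Over the 9 comparisons made of 3 chain ratios, each exact permutation p of 0.1 becomes 0.129 after Benjamini-Hochberg adjustment. The exons of the pair share 22 bases in an annotation of GRCm38, which is 0.295% of Col4a1, and the sources used here do not give the strand setting of the counting.

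**Figure D3:**
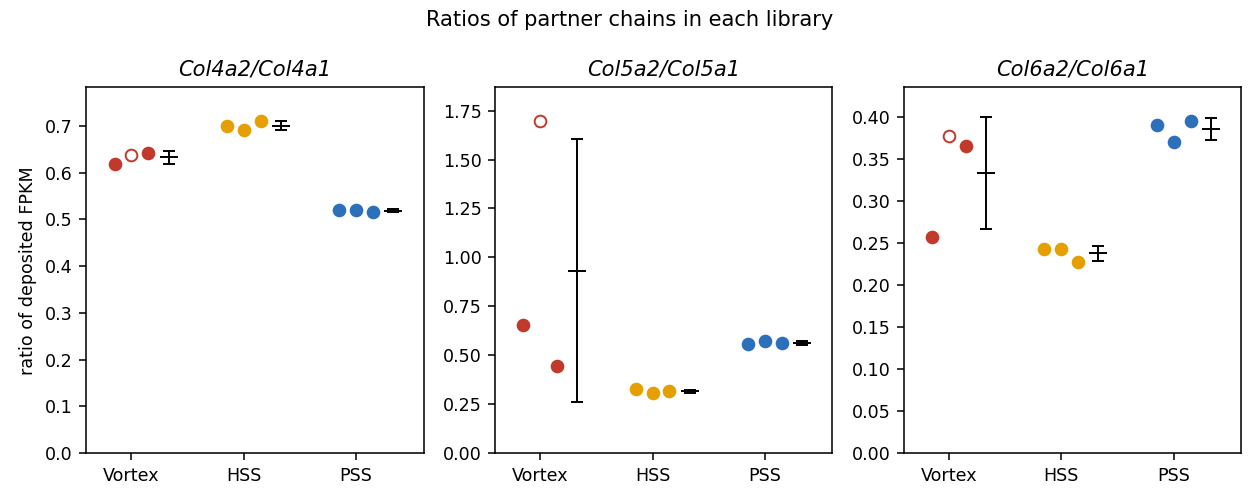
FPKM ratio of partner chains in each library (points, vertical axes from 0) with mean and SD beside each group (n = 3) for Col4a2 to Col4a1, Col5a2 to Col5a1 and Col6a2 to Col6a1, the open circle being Vortex replicate 2. The Col4a2 to Col4a1 ratio separates the groups, at 0.617 to 0.642 in Vortex, 0.692 to 0.711 in HSS and 0.516 to 0.521 in PSS, and Vortex replicate 2 has a Col5a2 to Col5a1 ratio of 1.70 where the other 8 libraries have at most 0.653.

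Col4a5 (ENSMUSG00000031274), which in kidney and other tissues joins further Col4 chains into a more cross-linked network, was at 48.2, 8.45 and 33.4 FPKM in Vortex libraries, 38.0, 37.2 and 39.4 in HSS libraries and 17.0, 19.4 and 12.6 in PSS libraries. All HSS libraries and Vortex replicates 1 and 3 lay above PSS, and Vortex replicate 2 lay below it. The chain did not pass with all 9 libraries (adjusted p = 0.188 in Vortex against PSS and 0.160 in HSS against PSS), and without Vortex replicate 2 it passed as higher in both, at 1.49 ± 0.20 (adjusted p = 0.000391) and 1.26 ± 0.18 (adjusted p = 0.000609). Its neighbour Col4a6 had 0 to 4 counts in any library, so nearly all reads of this gene pair came from Col4a5. Col4a4 (ENSMUSG00000067158), a chain of the kidney filter network, was low everywhere, at 0.184, 0.0451 and 0.383 FPKM in Vortex libraries, 0.857, 0.834 and 1.07 in HSS libraries and 0.909, 1.00 and 0.716 in PSS libraries. All Vortex libraries were below all others, with log2 fold changes just short of the threshold at -1.95 ± 0.57 (adjusted p = 0.0520) against PSS and -2.06 ± 0.57 (adjusted p = 0.0596) against HSS. Both passed without Vortex replicate 2, at -1.46 ± 0.30 (adjusted p = 0.00400) and -1.58 ± 0.30 (adjusted p = 0.00538). With all libraries 0 of the 4 tested basement membrane chains passed in any comparison by edgeR, where 13.4% of all tested genes passed in Vortex against PSS, 7.87% in HSS against PSS and 7.04% in Vortex against HSS. At an unadjusted p under 0.05 there were 2 in Vortex against PSS, 2 in HSS against PSS and 3 in Vortex against HSS. DESeq2 called 1, 0 and 3 of the 4 chains in these comparisons and limma-voom called 1, 0 and 1. The shares of all tested genes at an unadjusted p or by these methods were not worked out. The edgeR shares above do not serve for them, so these counts are not a result about the class.

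Col18a1 (ENSMUSG00000001435), a basement membrane collagen outside the Col4 family whose end fragment is endostatin, was higher in Vortex than in both other groups. Its levels were 70.8, 107 and 71.9 FPKM in Vortex libraries, 37.2, 37.3 and 40.5 in HSS libraries and 45.7, 50.5 and 31.4 in PSS libraries, with means of 83.2 ± 20.4 FPKM in Vortex, 38.3 ± 1.86 in HSS and 42.6 ± 9.95 in PSS (SD, n = 3 each). The lowest Vortex library lay above the highest library of the other groups, and HSS and PSS overlapped. The log2 fold change was 1.15 ± 0.23 (adjusted p = 0.0137) in Vortex against PSS, 1.26 ± 0.23 (adjusted p = 0.0184) in Vortex against HSS and -0.11 ± 0.23 (adjusted p = 0.831) in HSS against PSS. The rise over PSS ended without PSS replicate 1 (adjusted p = 0.0627) and that over HSS without any 1 HSS library (adjusted p up to 0.115), while without Vortex replicate 2 both passed, at 0.91 ± 0.17 (adjusted p = 0.00251) and 1.02 ± 0.17 (adjusted p = 0.00284). Col15a1 (ENSMUSG00000028339), its closest relative, was low, with 29, 9 and 52 counts in Vortex libraries, 53, 48 and 55 in HSS libraries and 28, 21 and 12 in PSS libraries. It did not pass, with 0.68 ± 0.59 (adjusted p = 0.491) in Vortex against PSS, 1.42 ± 0.59 (adjusted p = 0.185) in HSS against PSS and -0.75 ± 0.58 (adjusted p = 0.448) in Vortex against HSS. It passed once Vortex replicate 2 was left out, as higher than PSS in Vortex, at 1.14 ± 0.38 (adjusted p = 0.0411), and in HSS, at 1.42 ± 0.35 (adjusted p = 0.0121).

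Among the fibrillar chains, the main fibre-forming collagens did not pass in any comparison, while the minor chains Col11a1 and Col5a3 did. Col3a1 (ENSMUSG00000026043), the main chain of the thin fibres of vessel walls, was at 37.7, 5.03 and 33.03 FPKM in Vortex libraries, 79.0, 77.1 and 81.5 in HSS libraries and 54.0, 59.3 and 40.2 in PSS libraries. Col1a1 (ENSMUSG00000001506), the main chain of type I collagen, was at 17.2, 4.78 and 24.3 FPKM in Vortex libraries, 38.4, 37.5 and 39.3 in HSS libraries and 37.8, 42.6 and 29.2 in PSS libraries. In FPKM both were lowest in Vortex, where every library was below every HSS and PSS library. In CPM, which carries the TMM factors, Vortex and PSS overlapped for Col3a1 but not for Col1a1, so the separation of Col3a1 depended on the scaling. Vortex replicate 2 had only 5.03 FPKM of Col3a1 and 4.78 FPKM of Col1a1. For Col3a1 the log2 fold change was -0.85 ± 0.56 (adjusted p = 0.348) in Vortex against PSS, 0.67 ± 0.56 (adjusted p = 0.533) in HSS against PSS and -1.52 ± 0.57 (adjusted p = 0.127) in Vortex against HSS. For Col1a1 it was -1.08 ± 0.45 (adjusted p = 0.147), 0.11 ± 0.45 (adjusted p = 0.920) and -1.19 ± 0.45 (adjusted p = 0.134) in the same order. The spread was smaller without Vortex replicate 2, and Col3a1 passed as higher in HSS than in PSS, at 0.67 ± 0.14 (adjusted p = 0.00639), and as lower in Vortex than in HSS, at -1.04 ± 0.16 (adjusted p = 0.00236), whereas Vortex against PSS did not pass, at -0.37 ± 0.16 (adjusted p = 0.101). Col1a1 then passed as lower in Vortex than in PSS, at -0.66 ± 0.17 (adjusted p = 0.0139), and than in HSS, at -0.77 ± 0.17 (adjusted p = 0.0115).

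Type I collagen is usually a mixed trimer of Col1a1 and Col1a2, but Col1a2 (ENSMUSG00000029661) was almost unread in these cells. It had 4, 0 and 4 counts in Vortex libraries, 9, 10 and 6 in HSS libraries and 15, 16 and 8 in PSS libraries. Pooled over the libraries of a group there were 8 counts of Col1a2 beside 6026 of Col1a1 in Vortex, 25 beside 14309 in HSS and 39 beside 14004 in PSS. As a share of the counts of both genes, Col1a2 took 0.133% in Vortex (exact 95% binomial interval 0.0573% to 0.261%), 0.174% in HSS (0.113% to 0.257%) and 0.278% in PSS (0.198% to 0.379%). These are shares of reads, not levels per length, and the intervals cover counting error only. Per length, Col1a2 was at 0 to 0.0668 FPKM and Col1a1 at 4.78 to 42.6 FPKM over the 9 libraries. The log2 fold change of Col1a2 was -2.10 ± 0.79 (adjusted p = 0.109) in Vortex against PSS, -0.55 ± 0.69 (adjusted p = 0.701) in HSS against PSS and -1.54 ± 0.80 (adjusted p = 0.255) in Vortex against HSS.

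Type V collagen joins type I and III fibrils and limits their width. Col5a1 (ENSMUSG00000026837) was at 37.0, 12.2 and 37.4 FPKM in Vortex libraries, 54.2, 56.7 and 56.2 in HSS libraries and 52.3, 57.1 and 37.9 in PSS libraries. Col5a2 (ENSMUSG00000026042), its partner, was at 24.2, 20.8 and 16.7 FPKM in Vortex libraries, 17.7, 17.6 and 17.8 in HSS libraries and 29.1, 32.7 and 21.3 in PSS libraries. The 2 chains differed in order, since Col5a1 was lowest in Vortex replicate 2 whereas Col5a2 there lay within the range of the other Vortex libraries. Their ratio, Col5a2 to Col5a1, was 0.653, 1.70 and 0.445 in Vortex libraries, 0.326, 0.310 and 0.317 in HSS libraries and 0.556, 0.573 and 0.561 in PSS libraries. HSS lay below both other groups without overlap (p = 0.1 for HSS against PSS and for Vortex against HSS, exact two-sided permutation test, the smallest possible), and Vortex overlapped PSS (p = 0.7, exact permutation test). Neither chain passed with all libraries, and Col5a2 passed as lower in HSS than in PSS without Vortex replicate 2, at -0.61 ± 0.18 (adjusted p = 0.0294).

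Col5a3 (ENSMUSG00000004098), another type V chain, of more restricted expression, was higher in Vortex, at 1.49, 1.20 and 2.27 FPKM in Vortex libraries, 0.898, 1.00 and 0.892 in HSS libraries and 0.354, 0.640 and 0.198 in PSS libraries. All Vortex libraries were above all HSS libraries, and these were above all PSS libraries. The log2 fold change in Vortex against PSS was 2.23 ± 0.41 (adjusted p = 0.0104), a rise that ended without PSS replicate 1 (adjusted p = 0.0602). In HSS against PSS it was 1.27 ± 0.40 (adjusted p = 0.0913), short of the threshold, and without Vortex replicate 2 it passed at 1.27 ± 0.35 (adjusted p = 0.0199), as did Vortex against HSS at 1.13 ± 0.35 (adjusted p = 0.0427). Col11a1 (ENSMUSG00000027966), a chain of cartilage fibrils that is related to type V, was at 0.634, 0.345 and 0.420 FPKM in Vortex libraries, 0.498, 0.527 and 0.704 in HSS libraries and 2.37, 2.64 and 1.60 in PSS libraries. It was lower in both other groups than in PSS with no overlap, at -2.06 ± 0.31 (adjusted p = 0.00527) in Vortex and -1.89 ± 0.31 (adjusted p = 0.00791) in HSS. The fall in Vortex held when each of the 9 libraries was left out in turn, and that in HSS was lost without HSS replicate 1 or 2 (adjusted p up to 0.0563). Col11a2 (ENSMUSG00000024330), its partner in cartilage, was at 1.83, 1.102 and 1.24 FPKM in Vortex libraries, 1.23, 1.13 and 1.20 in HSS libraries and 1.29, 1.49 and 0.826 in PSS libraries, with overlapping groups and no passing difference. The remaining tested fibrillar chains, Col2a1 and Col27a1, ranged from 0.150 to 0.816 FPKM and did not pass.

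Type VI collagen forms beaded filaments around cells from Col6a1, Col6a2 and a larger chain such as Col6a3. Col6a1 (ENSMUSG00000001119) was at 21.7, 3.49 and 31.9 FPKM in Vortex libraries, 25.0, 24.4 and 27.0 in HSS libraries and 16.7, 18.2 and 15.1 in PSS libraries. Col6a2 (ENSMUSG00000020241) was at 5.58, 1.32 and 11.7 FPKM in Vortex libraries, 6.07, 5.93 and 6.14 in HSS libraries and 6.51, 6.74 and 5.97 in PSS libraries. Neither passed with all libraries, and Vortex replicate 2 was the lowest of all 9 for both. When it was left out, Col6a1 passed as higher than PSS in Vortex, at 0.84 ± 0.15 (adjusted p = 0.00232), and in HSS, at 0.65 ± 0.14 (adjusted p = 0.00659). Their ratio, Col6a2 to Col6a1, was 0.257, 0.378 and 0.365 in Vortex libraries, 0.243, 0.243 and 0.228 in HSS libraries and 0.390, 0.371 and 0.396 in PSS libraries. HSS lay below both other groups (p = 0.1 each, exact two-sided permutation test, the smallest possible) and Vortex overlapped PSS (p = 0.2, exact permutation test). Col6a3 (ENSMUSG00000048126) fell in both groups, at 2.06, 0.593 and 3.48 FPKM in Vortex libraries, 1.50, 1.58 and 1.62 in HSS libraries and 8.19, 8.06 and 7.30 in PSS libraries. Every PSS library was above every other library, and the log2 fold change was -1.79 ± 0.48 (adjusted p = 0.0403) in Vortex and -2.29 ± 0.49 (adjusted p = 0.0243) in HSS, both against PSS. The fall in Vortex was lost without Vortex replicate 1 or any 1 HSS or PSS library (adjusted p up to 0.119) and that in HSS without any 1 HSS or PSS library (adjusted p up to 0.111). Both held without Vortex replicate 2, at -1.35 ± 0.19 (adjusted p = 0.000532) and -2.29 ± 0.17 (adjusted p = 9.68e-06), and Col6a3 was then higher in Vortex than in HSS, at 0.94 ± 0.18 (adjusted p = 0.00622).

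Fibril-associated collagens bind the surface of fibrils. Col12a1 (ENSMUSG00000032332), which is found in tissues under tension, was at 1.099, 0.523 and 1.60 FPKM in Vortex libraries, 3.47, 3.36 and 3.20 in HSS libraries and 7.84, 7.83 and 5.39 in PSS libraries. The 3 groups did not overlap, with Vortex lowest and PSS highest. Its log2 fold change was -2.55 ± 0.35 (adjusted p = 0.00462) in Vortex against PSS, -1.52 ± 0.34 (adjusted p = 0.0347) in Vortex against HSS and -1.03 ± 0.34 (adjusted p = 0.0995) in HSS against PSS, which passed as lower without Vortex replicate 2, at -1.03 ± 0.17 (adjusted p = 0.00118). The fall against PSS held without each of the 9 libraries in turn, and that against HSS was lost without PSS replicate 1 or 2 or any 1 HSS library (adjusted p up to 0.138). Col14a1 (ENSMUSG00000022371), a close relative, varied more among the Vortex libraries than among those of HSS or PSS. It was at 0.270, 11.2 and 3.83 FPKM in Vortex libraries, 0.426, 0.434 and 0.368 in HSS libraries and 4.06, 4.56 and 3.52 in PSS libraries. HSS lay below PSS with no overlap, while the Vortex libraries ranged from below HSS to above PSS. Its log2 fold change was -3.27 ± 0.96 (adjusted p = 0.0741) in HSS against PSS and 3.78 ± 0.98 (adjusted p = 0.0509) in Vortex against HSS, just short of the threshold, and without Vortex replicate 2 these passed at -3.27 ± 0.67 (adjusted p = 0.00507) and 2.42 ± 0.71 (adjusted p = 0.0336). Col16a1 (ENSMUSG00000040690) was at 8.18, 4.76 and 8.33 FPKM in Vortex libraries, 12.6, 12.6 and 13.6 in HSS libraries and 10.0, 10.98 and 6.50 in PSS libraries. Col20a1 (ENSMUSG00000016356) was at 14.3, 1.26 and 6.95 FPKM in Vortex libraries, 5.22, 5.50 and 5.23 in HSS libraries and 4.90, 6.07 and 2.90 in PSS libraries. Col9a3 (ENSMUSG00000027570), a chain of a cartilage collagen that coats fibrils, was at 1.12, 0.260 and 0.806 FPKM in Vortex libraries, 1.24, 1.25 and 1.27 in HSS libraries and 0.570, 0.713 and 0.599 in PSS libraries. None of these passed with all libraries. When Vortex replicate 2 was left out, Col16a1 passed as higher in HSS than in PSS, Col9a3 as higher in Vortex and in HSS than in PSS, and Col20a1 as higher in Vortex than in both other groups. Col9a2 had 4 to 27 counts per library, and its log2 fold change of -1.69 ± 0.52 (adjusted p = 0.0588) in Vortex against PSS was short of the threshold.

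The transmembrane collagens, which stay anchored in the plasma membrane and can be shed, included Col13a1, the chain with the largest called fold change. Col23a1 (ENSMUSG00000063564) was higher in Vortex, at 5.95, 4.81 and 8.42 FPKM in Vortex libraries, 1.48, 1.35 and 1.36 in HSS libraries and 1.61, 1.78 and 1.13 in PSS libraries. The lowest Vortex library, at 4.81 FPKM, lay above the highest of the others, at 1.78 FPKM. Its log2 fold change was 2.25 ± 0.26 (adjusted p = 0.00274) against PSS, which held without each of the 9 libraries in turn, and 2.32 ± 0.26 (adjusted p = 0.00399) against HSS, which was lost without HSS replicate 2 or 3 (adjusted p up to 0.0530). Col25a1 (ENSMUSG00000058897), first described in the amyloid plaques of the brain, was higher in HSS than in both other groups, at 0.356, 0.0668 and 0.198 FPKM in Vortex libraries, 1.60, 1.63 and 1.70 in HSS libraries and 0.3004, 0.279 and 0.214 in PSS libraries. The lowest HSS library, at 1.60 FPKM, lay above the highest of the others, at 0.356 FPKM. The log2 fold change was 2.67 ± 0.49 (adjusted p = 0.0136) in HSS against PSS and -2.86 ± 0.50 (adjusted p = 0.0159) in Vortex against HSS. Without any 1 HSS or PSS library the first was lost (adjusted p up to 0.0755), and without any 1 HSS library the second was lost (adjusted p up to 0.0858).

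Col13a1 (ENSMUSG00000058806), a transmembrane collagen of cell-matrix adhesions, was almost absent from HSS, at 0.0122, 2.99 and 0.428 FPKM in Vortex libraries, 0.0206, 0.135 and 0.0689 in HSS libraries and 6.64, 7.34 and 4.53 in PSS libraries. These values stand for 1, 322 and 42 counts in Vortex libraries, 2, 11 and 6 in HSS libraries and 580, 663 and 441 in PSS libraries. PSS was above all other libraries, HSS had at most 11 counts, and the Vortex libraries ranged from below HSS up to 2.99 FPKM, under the lowest PSS library. The log2 fold change was -6.34 ± 1.42 (adjusted p = 0.0291) in HSS against PSS, a call lost without any 1 HSS or PSS library (adjusted p up to 0.134) that passed without Vortex replicate 2, at -6.35 ± 0.70 (adjusted p = 0.000110). It was also lost with no filter on low counts (adjusted p = 0.128) and by limma-voom (adjusted p = 0.0528). In Vortex against PSS it did not pass with all libraries (adjusted p = 0.213) and passed as lower without Vortex replicate 2, at -4.59 ± 0.71 (adjusted p = 0.000917). Vortex against HSS was short of the threshold, at 4.11 ± 1.34 (adjusted p = 0.0921), and farther from it without Vortex replicate 2, at 1.76 ± 0.90 (adjusted p = 0.181). Vortex replicate 2, which had the highest Col13a1 and Col14a1 of its group, also had by far the highest Pecam1 and Cldn5, and the part of this in the result was not tested. The last transmembrane chain, Col17a1, had 7 to 40 counts per library and did not pass.

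Col8a1 (ENSMUSG00000068196), a short chain of vessel walls and of the membrane behind the cornea, was at 20.1, 2.31 and 14.8 FPKM in Vortex libraries, 29.5, 31.0 and 30.6 in HSS libraries and 13.3, 13.4 and 11.03 in PSS libraries. HSS lay above PSS with no overlap, and so did Vortex replicates 1 and 3, whereas Vortex replicate 2 lay below. It did not pass with all libraries, and without Vortex replicate 2 it passed as higher than PSS in Vortex, at 0.64 ± 0.16 (adjusted p = 0.0114), and in HSS, at 1.31 ± 0.15 (adjusted p = 0.000120), and as lower in Vortex than in HSS, at -0.67 ± 0.16 (adjusted p = 0.0162). Its partner chain Col8a2 had 0 to 4 counts per library. Col7a1 (ENSMUSG00000025650), the chain of the fibrils that anchor epidermis, was at 2.06, 0.948 and 1.28 FPKM in Vortex libraries, 1.58, 1.55 and 1.50 in HSS libraries and 0.922, 0.948 and 0.561 in PSS libraries. Its log2 fold change of 1.00 ± 0.32 (adjusted p = 0.0686) in Vortex against PSS was short of the threshold, and without Vortex replicate 2 it passed at 1.21 ± 0.26 (adjusted p = 0.00538), as did HSS against PSS at 0.97 ± 0.24 (adjusted p = 0.0125). Col22a1 had 2 to 35 counts per library and Col28a1 5 to 29, and they did not pass with all libraries, and without Vortex replicate 2 Col28a1 passed as higher in Vortex than in PSS.

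In Vortex against PSS, 3 of the 33 tested chains rose (Col18a1, Col5a3 and Col23a1), 3 fell (Col11a1, Col12a1 and Col6a3) and 27 did not pass. This is 18.2% of the chains, against 13.4% of all tested genes, of which 8.33% rose and 5.03% fell, and the difference between these shares was not tested. The median log2 fold change of the chains was 0.15, against 0.11 over all tested genes. By class, 1 fibrillar chain rose and 1 fell of 10 tested, 0 of 4 basement membrane chains passed, and 2 of 19 other chains rose and 2 fell. Without Vortex replicate 2, 11 chains rose, 6 fell and 16 did not pass, so 51.5% passed, against 36.3% of all genes then tested (19.7% higher and 16.6% lower), and the medians were 0.025 over the chains and 0.013 over all genes. Without PSS replicate 1 the count was 3, of which 1 rose and 2 fell, and a fit of only the Vortex and PSS libraries called 1 chain, Col23a1, with the other 5 at an adjusted p of 0.0506 to 0.138. Scaled by library totals in place of TMM, 3 rose and 5 fell, under a scaling that moved the median of all genes by -0.17 on the log2 scale. Shares of all genes called were worked out only with all libraries and without Vortex replicate 2, so counts under other fits are not a result about the chains. In CPM the groups did not overlap for 39.4% of the chains, against 30.0% of all tested genes.

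In HSS against PSS, which shares the PSS libraries with the comparison above, 1 chain rose (Col25a1), 3 fell (Col11a1, Col6a3 and Col13a1) and 29 did not pass. That is 12.1% of the chains, against 7.87% of all tested genes, of which 4.18% rose and 3.70% fell. The median log2 fold change was 0.03 over the chains, against -0.00487 over all tested genes. By class, 1 of 10 fibrillar chains fell, 0 of 4 basement membrane chains passed, and 1 of 19 other chains rose and 2 fell. Without Vortex replicate 2, which enters through the spread that all groups share, 10 rose, 7 fell and 16 did not pass, and 51.5% passed against 29.1% of all genes (15.4% higher and 13.7% lower). The medians were then 0.028 over the chains and -0.00383 over all genes. A fit of only the HSS and PSS libraries, whose spread is smaller, called 18. Without Vortex replicate 1 the count was 6. It was 1 without HSS replicate 3 or any 1 PSS library, and 0 by edgeR without HSS replicate 1 or 2, where 8 chains had an unadjusted p under 0.05 in each case. The share of all genes called was worked out only with all libraries and without Vortex replicate 2. Counts under the other fits, the 18 among them, are therefore not a result about the chains. In CPM the groups did not overlap for 54.5% of the chains, against 56.2% of all tested genes.

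In Vortex against HSS, 2 chains rose (Col18a1 and Col23a1), 2 fell (Col12a1 and Col25a1) and 29 did not pass. That is 12.1% of the chains, against 7.04% of all tested genes, of which 4.37% rose and 2.67% fell. The median log2 fold change was -0.21 over the chains and 0.10 over all tested genes. By class, 2 of 19 other chains rose and 2 fell, and 0 of 10 fibrillar and 0 of 4 basement membrane chains passed by edgeR. At an unadjusted p under 0.05 there were 3 fibrillar chains, while DESeq2 called 1 fibrillar chain and limma-voom 0. Without Vortex replicate 2, 7 rose, 6 fell and 20 did not pass, and 39.4% passed against 23.9% of all genes (13.9% higher and 10.0% lower). The median of the chains then turned its sign, at 0.19 against 0.029 over all genes. A fit of only the Vortex and HSS libraries called 1, again Col23a1, with the other 3 at an adjusted p of 0.0594 to 0.102. Without Vortex replicate 1 the count was 8, without HSS replicate 1 it was 1, and by edgeR it was 0 without HSS replicate 2 or 3, where 12 and 10 chains had an unadjusted p under 0.05. For these fits, for DESeq2 and limma-voom and at an unadjusted p, the share of all genes was not worked out. Their counts are therefore not a result about the chains. In CPM the groups did not overlap for 45.5% of the chains, against 36.4% of all tested genes.

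**Figure D4:**
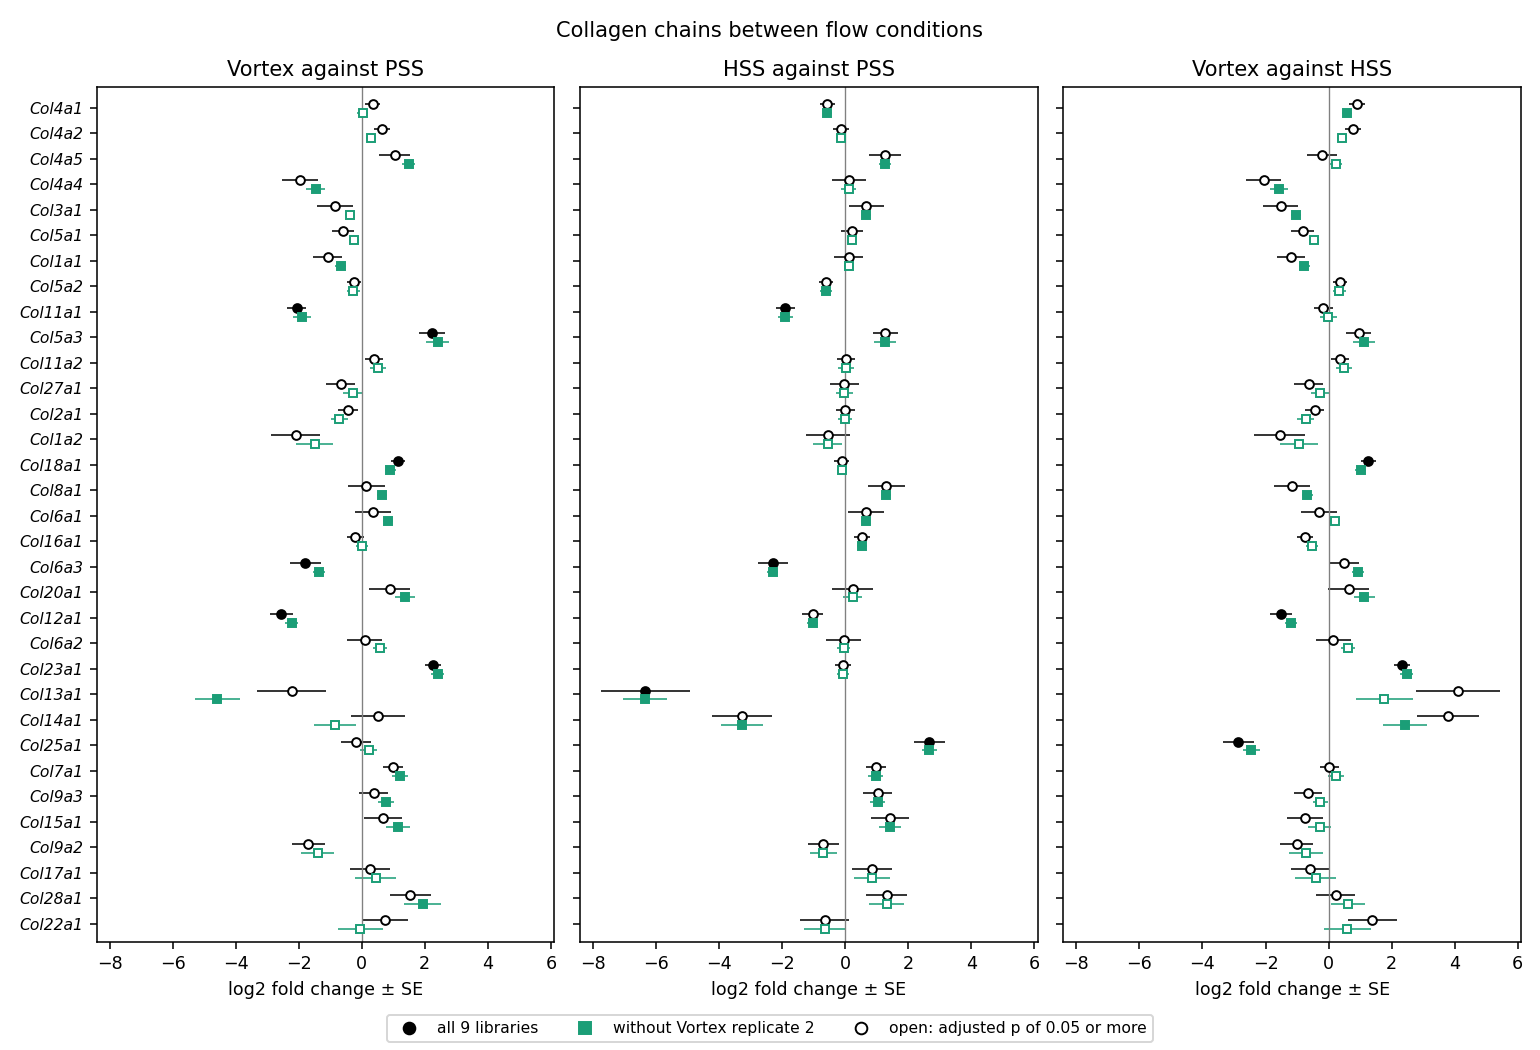
Log2 fold change and SE (horizontal axes) of the 33 tested chains (rows, basement membrane, fibrillar and then other chains, each by level) in the 3 comparisons, from all 9 libraries (black circles) and without Vortex replicate 2 (green squares), filled where the adjusted p is under 0.05. Col23a1 is 2.25 above PSS and 2.32 above HSS in Vortex, and the largest called fall is that of Col13a1 in HSS, at -6.34.

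Vortex replicate 2 was the lowest library for most tested chains. It had the lowest CPM of all 9 libraries for 19 of the 33 tested chains and the highest for 5, whereas over all tested genes it was lowest for 30.4% and highest for 30.5%. The 5 were Col4a1, Col4a2, Col18a1, Col14a1 and Col22a1. The 19 included Col1a1, Col1a2, Col3a1, Col5a1, Col6a1, Col6a2, Col6a3, Col8a1 and Col4a5. The part of its GC profile or of its endothelial marker level in this order was not tested.

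Enzymes and chaperones modify and fold collagen in the endoplasmic reticulum. Of 24 tested genes of hydroxylation, folding and secretion, 9 rose, 1 fell and 14 did not pass in Vortex against PSS, with a median log2 fold change of 0.70 against 0.11 over all tested genes. Calls were also more often higher than lower over all tested genes in this comparison, at 8.33% and 5.03%. P4ha2, a subunit of prolyl 4-hydroxylase, was at 114, 60.7 and 98.0 CPM in Vortex libraries, 89.9, 85.5 and 90.3 in HSS libraries and 28.2, 26.0 and 24.5 in PSS libraries. It rose in both groups with no overlap, at 1.79 ± 0.24 (adjusted p = 0.00414) in Vortex and 1.75 ± 0.24 (adjusted p = 0.00410) in HSS. The lysyl hydroxylases Plod3, at 1.19 ± 0.18 (adjusted p = 0.00527), and Plod1, at 1.06 ± 0.17 (adjusted p = 0.00650), also rose in Vortex against PSS. In HSS against PSS 3 rose, 2 fell and 19 did not pass, and the falls were those of the prolyl isomerase Fkbp14, at -1.53 ± 0.19 (adjusted p = 0.00311), and of the collagen galactosyltransferase Colgalt2, at -2.94 ± 0.48 (adjusted p = 0.00871). In Vortex against HSS 3 rose, 1 fell and 20 did not pass, with Colgalt2 at 2.49 ± 0.48 (adjusted p = 0.0209), P4ha3 at -1.48 ± 0.32 (adjusted p = 0.0295) and P3h3 at 1.23 ± 0.27 (adjusted p = 0.0334). Of all tested genes, 4.18% rose and 3.70% fell in HSS against PSS, and 4.37% rose and 2.67% fell in Vortex against HSS. The rises and falls without Vortex replicate 2 were 14 and 2, 9 and 3, and 11 and 1 in the 3 comparisons, where 36.3%, 29.1% and 23.9% of all genes passed in either direction.

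Of 12 tested genes that cleave procollagen or cross-link fibrils, 1 rose and 1 fell in Vortex against PSS, 2 rose in HSS against PSS and 2 fell in Vortex against HSS. The shares of all tested genes that passed were 13.4%, 7.87% and 7.04%. Tll1, a procollagen C-proteinase, fell in Vortex, at -1.22 ± 0.20 (adjusted p = 0.00720) against PSS and -1.16 ± 0.20 (adjusted p = 0.0159) against HSS. Pcolce2, an enhancer of that cleavage, rose against PSS, at 1.08 ± 0.23 (adjusted p = 0.0177) in Vortex and 1.14 ± 0.23 (adjusted p = 0.0200) in HSS. Loxl4, a lysyl oxidase of cross-linking, was higher in HSS than in PSS, at 1.29 ± 0.19 (adjusted p = 0.00548), and lower in Vortex than in HSS, at -1.19 ± 0.19 (adjusted p = 0.0138). The rises and falls without Vortex replicate 2 were 5 and 1, 6 and 0, and 1 and 2, beside 36.3%, 29.1% and 23.9% of all genes passing.

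Of 8 tested collagen receptors, 2 fell in Vortex against PSS, 1 rose and 4 fell in HSS against PSS, and 1 rose and 1 fell in Vortex against HSS, where 13.4%, 7.87% and 7.04% of all tested genes passed. Itga2, the alpha chain of an integrin that binds collagens, was at 30.4, 44.3 and 44.1 CPM in Vortex libraries, 5.66, 4.43 and 4.37 in HSS libraries and 48.0, 47.9 and 46.1 in PSS libraries. HSS lay far below both groups, at -3.29 ± 0.23 (adjusted p = 0.000807) against PSS, and Vortex against HSS was at 3.04 ± 0.22 (adjusted p = 0.00211). Itga1, which pairs with the same beta chain and prefers type IV collagen, fell in Vortex, at -1.68 ± 0.26 (adjusted p = 0.00633), and in HSS, at -2.67 ± 0.27 (adjusted p = 0.00158), both against PSS. Ddr1, a tyrosine kinase receptor for collagens, was higher in HSS than in PSS, at 1.62 ± 0.24 (adjusted p = 0.00543), and lower in Vortex than in HSS, at -1.29 ± 0.24 (adjusted p = 0.0180). Itga11 fell in Vortex against PSS, at -2.44 ± 0.56 (adjusted p = 0.0221), and was low, at 0.126 to 0.334 CPM in Vortex and 1.09 to 1.61 CPM in PSS. The rises and falls without Vortex replicate 2 were 1 and 3, 2 and 4, and 2 and 1, with 36.3%, 29.1% and 23.9% of all genes passing.

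Of 13 tested matrix proteins that bind collagen, 2 rose and 2 fell in Vortex against PSS, 2 fell in HSS against PSS and 1 fell in Vortex against HSS, beside 13.4%, 7.87% and 7.04% of all tested genes. Nid1, a nidogen that links type IV collagen to laminin, rose in Vortex against PSS, at 1.05 ± 0.17 (adjusted p = 0.00691). Fmod, a proteoglycan of fibrils, fell there, at -3.43 ± 0.48 (adjusted p = 0.00464). Its level was low, at 0.0987 to 0.189 CPM in Vortex and 1.33 to 1.77 CPM in PSS. In HSS against PSS the fall of Sparcl1 was -3.71 ± 0.67 (adjusted p = 0.0127), and in Vortex against HSS the fall of Prelp was -2.07 ± 0.34 (adjusted p = 0.0138). Sparcl1 was at 0.158 to 0.505 CPM in HSS and 4.28 to 5.25 CPM in PSS. Prelp was at 0.762 to 1.63 CPM in Vortex and 5.05 to 6.08 CPM in HSS. Mgp, the matrix Gla protein, was at 0 to 0.247 CPM in Vortex, 0 to 0.0561 CPM in HSS and 4.28 to 10.2 CPM in PSS, and it fell in Vortex (adjusted p = 0.00538) and in HSS (adjusted p = 0.00344), both against PSS. The rises and falls without Vortex replicate 2 were 3 and 4, 4 and 4, and 2 and 2 of 14 then tested, beside 36.3%, 29.1% and 23.9% of all genes.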

How the data were processed

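Polyadenylated RNA of bEnd.3 cells was sequenced in 9 libraries, 3 per flow group, which were assigned by their labels (the Vortex libraries being the group that the protocol calls VSS). HISAT2, HTSeq 0.13.5 and the build GRCm39 are named in the submitters' processing notes. The authors deposited 1 table with a raw count per gene and library and an FPKM value scaled by gene length and library total. Chains were matched by symbol, and the members, classes and companion lists were chosen with earlier results of these data known. They are textbook classes and not independent evidence.

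The tests used edgeR 4.0.16 in R 4.3.3. After filterByExpr, libraries were scaled by TMM, and a robust quasi-likelihood model with 1 mean per group was fitted to all 15774 tested genes and 9 libraries. Calls were made at an adjusted p (Benjamini-Hochberg, whole table) below 0.05. The SE was derived from the fold change and the F statistic, and the biological coefficient of variation was 0.350. Since 3 libraries against 3 cannot give an exact permutation p below 0.1, single-gene p-values rest on the variance model shared across genes and groups. Class shares and chain ratios use deposited FPKM and were compared per library. Chains with a mean of at least 1 FPKM in a group or a passing test are given by library. SE and adjusted p are given for passing chains, for those with an adjusted p between 0.05 and 0.10, for Col4a1, Col4a2, Col18a1, Col15a1, Col1a1, Col1a2 and Col3a1, and, as values chosen after they were seen, for some chains without Vortex replicate 2. Of each companion list up to 3 genes with the smallest p were named per comparison, of which the text gives part.

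Duplicated libraries were looked for by a chi-square per gene between libraries of a group, which is 1 under sampling noise alone over genes with at least 20 counts. Its mean was 68.0 to 419 in Vortex, 2.10 to 2.80 in HSS and 6.49 to 68.0 in PSS, and all libraries were kept. Alternatives were DESeq2 1.42.0 size factors or its Wald test, library totals, other count filters, limma 3.58.1 (voom, or log2 FPKM with a pseudocount of 1 or 0.1), the replicate number as a block, only the 6 compared libraries, removal of a GC trend and leaving out each library. The removal of the GC trend together with leaving out Vortex replicate 2 was chosen after seeing the data. GC content came from GENCODE M21 on GRCm38 and covered 98.5% of tested genes. Promoter windows are from RefSeq on GRCm38.p6, and no coordinates on GRCm39 are given.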

Additional observations from a re-analysis of the deposited data

How the results depend on the processing

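For the 42 chain and comparison pairs whose log2 fold change is reported with its test, 876 values were computed under the alternatives. Of these, 739 kept their direction and side of the threshold, 76 newly passed it, 55 no longer passed and 6 changed sign. The number of chains called in Vortex against PSS was 6 with all libraries, 1 with only the 6 compared libraries, 18 with the GC trend removed and Vortex replicate 2 left out, and 3 to 17 when each library was left out in turn. In HSS against PSS it was 4, and 9 by DESeq2's Wald test, 18 with only the 6 compared libraries, 18 with the GC trend removed and Vortex replicate 2 left out, and 0 to 17 with each library left out. In Vortex against HSS it was 4, and 10 by DESeq2's Wald test, 1 with only the 6 compared libraries, 7 with the GC trend removed, 17 with that and Vortex replicate 2 left out, and 0 to 13 with each library left out. Calls over all tested genes moved too. Without Vortex replicate 2 they went from 13.4% to 36.3%, 7.87% to 29.1% and 7.04% to 23.9% in the 3 comparisons. Under the other settings that share was not worked out, so the changes in count are not particular to the chains. Sign changes were of chains that did not pass. Col4a1 in Vortex against PSS was at -0.11 with the GC trend removed and -0.20 with Vortex replicate 2 also left out. Col18a1 in HSS against PSS was at 0.013 without PSS replicate 2, and -0.27 to 0.013 over the libraries left out. Col1a1 in HSS against PSS was at -0.092 with the GC trend removed, -0.095 with Vortex replicate 2 also left out and -0.011 without PSS replicate 3, and -0.011 to 0.22 over the libraries left out. With only the compared libraries, 5 of the 6 calls of Vortex against PSS and 3 of the 4 of Vortex against HSS were lost. The call of Col13a1 in HSS against PSS was lost without a filter and by limma-voom, and that of Col6a3 in Vortex against PSS with the GC trend removed (adjusted p = 0.0533). The cause of these changes was not tested. From CPM, which is not per length, the mean HSS shares were 50.005% basement membrane, 32.6% fibrillar and 17.4% other. The mean PSS shares were 58.3% basement membrane and 25.9% fibrillar. In HSS replicates 1, 2 and 3 the basement membrane share from CPM was 50.02%, 49.92% and 50.07%, so it was not a majority in every library.

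Libraries that share a replicate number did not deviate together (correlations of -0.123 to 0.118), and not every library correlated best with its own number, so the numbers were not taken as pairs. With the replicate number as a block, 5 chains passed in Vortex against PSS, 4 in HSS against PSS and 3 in Vortex against HSS. The calls lost were Col6a3 in Vortex against PSS (adjusted p = 0.0532) and Col12a1 in Vortex against HSS (adjusted p = 0.0742).

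Depth limits the 11 untested chains, which had at most 9 counts per library. Because all groups share 1 spread per gene, p-values of HSS against PSS take in the wide spread of Vortex, and those of the Vortex comparisons take in the narrow spread of HSS.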
